A study of Mus musculus with 12 samples.

Results

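The comparison of Arhgap35 knockout with control motor neurons was made within 5 pairs of libraries, which hold 10 of the 12 libraries of the study. The members are the GFP-positive libraries of both genotypes, control replicates 1 to 5 and knockout replicates 1 to 5, with each knockout library set against the control library that carries its number. The pair of GFP-negative libraries was left out. All cells came from ventral spinal cord of CB6F1/J mouse embryos at E12.5 that carry the Hb9:GFP reporter, in which the Hb9 (Mnx1) promoter drives a green fluorescent protein. The knockout embryos lack Arhgap35 (p190), by an allele the labels do not describe further, and the controls were littermates, either wild-type or p190+/-, so a control pool may hold heterozygous cells. Tissue of several embryos was pooled, dissociated and sorted by fluorescence before polyA RNA was purified, and each library is therefore 1 pool. The labels do not say whether the pools came from separate litters. The paired p-values measure how the knockout-minus-control difference varies from pair to pair of these pools.

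Arhgap35 encodes p190, a GTPase-activating protein: proteins of this class switch small GTPases off by speeding the hydrolysis of their bound GTP. Such switches act on the actin cytoskeleton, which shapes how growth cones advance, turn or stall. Spinal motor neurons are born ventrally, switch on Mnx1, Isl1, Lhx3 and cholinergic genes, and send their axons out of the cord into the periphery. The comparison asks which transcripts of these neurons differ when the protein is lost.

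The libraries held 23.7 to 33.8 M estimated counts, with 24098 to 24947 genes at 1 count or more. Defining motor neuron genes were high in all 10 libraries. Mnx1, the gene whose promoter drives the reporter, stood at 228 to 272 CPM (counts scaled to library size) in control and 239 to 313 CPM in knockout libraries. Slc18a3, the vesicular acetylcholine transporter, stood at 232 to 278 CPM in control and 239 to 289 CPM in knockout libraries. Both markers overlapped between the genotypes. Knockout replicate 3 had the highest level of Mnx1, at 313 CPM, and of the LIM factor Lhx4, at 239 CPM, where the other knockout libraries reached 247 and 170 CPM.

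Libraries that shared a number were more alike than libraries that did not. Over 10676 genes that averaged 3 or more in log2 CPM, the median absolute log2 difference between a knockout and a control library was 0.0579 to 0.0734 in the 5 matched pairs and 0.0768 to 0.133 in the 20 unmatched combinations. Hoxb9, a caudal Hox gene, is an example. In replicate order it stood at 119, 55.8, 32.6, 136 and 21.4 CPM in control libraries and at 95.7, 53.9, 42.7, 117 and 22.7 CPM in knockout libraries. Its level thus ranged widely between numbers, while libraries of 1 number lay close together and the genotypes overlapped. Evx1, a transcription factor of V0 interneurons, varied still more between numbers, at 4.11, 0.761, 0.125, 16.3 and 0.422 CPM in control libraries and 2.70, 0.534, 0.0812, 8.95 and 0.239 CPM in knockout libraries. For each of these genes the numbers kept their order, from 4 at the top down, in both genotypes.

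**Figure D1:**
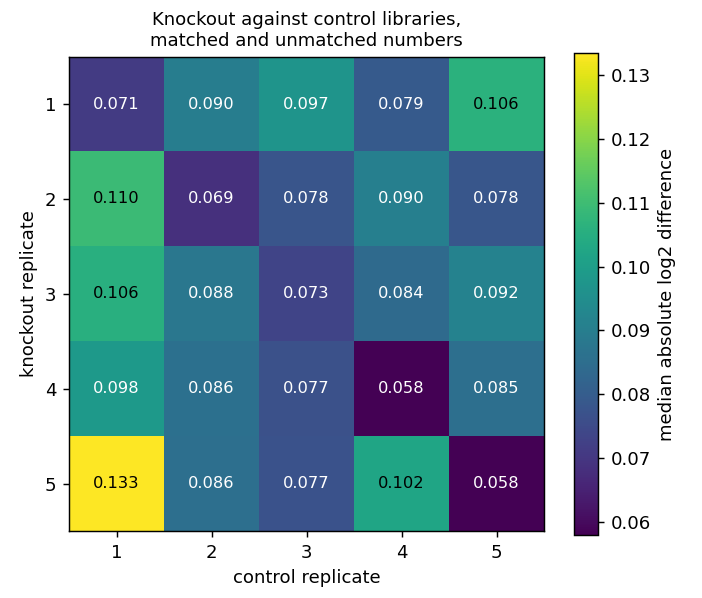
Median absolute log2 difference in CPM between each knockout library (rows) and each control library (columns), over genes that averaged 3 or more in log2 CPM. The 5 matched pairs on the diagonal lie at 0.0579 to 0.0734, below the 0.0768 to 0.133 of all unmatched combinations.

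The pools also differed in Y-linked transcripts, which were higher in the knockout library of every pair but pair 3. Eif2s3y, a Y-linked translation factor gene, stood at 21.1, 15.4, 48.2, 0.0833 and 0.0422 CPM in control libraries and at 32.3, 28.2, 0.203, 31.2 and 32.1 CPM in knockout libraries. Control replicates 4 and 5 and knockout replicate 3 thus held almost no Y-linked RNA, and Ddx3y, Kdm5d and Uty followed the same pattern. Within pairs, Eif2s3y differed by 0.61, 0.87, -7.44, 7.62 and 8.09 on the log2 CPM scale, and Xist, the X-inactivation RNA, by -0.08, -0.52, 1.89, -1.01 and -0.92. The genotypes are therefore not matched for the sex of the pooled embryos in pairs 3, 4 and 5. In pair 2 the 4 Y-linked genes were also higher in the knockout library, by 0.81 to 0.99. With the level of the 4 Y-linked genes as a covariate, added after the values were seen, 3 residual degrees of freedom remained and edgeR called 0 genes, with 725 outside the targeted locus (20 Mb to either side of Arhgap35 on chromosome 7) at an unadjusted p under 0.05.

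**Figure D2:**
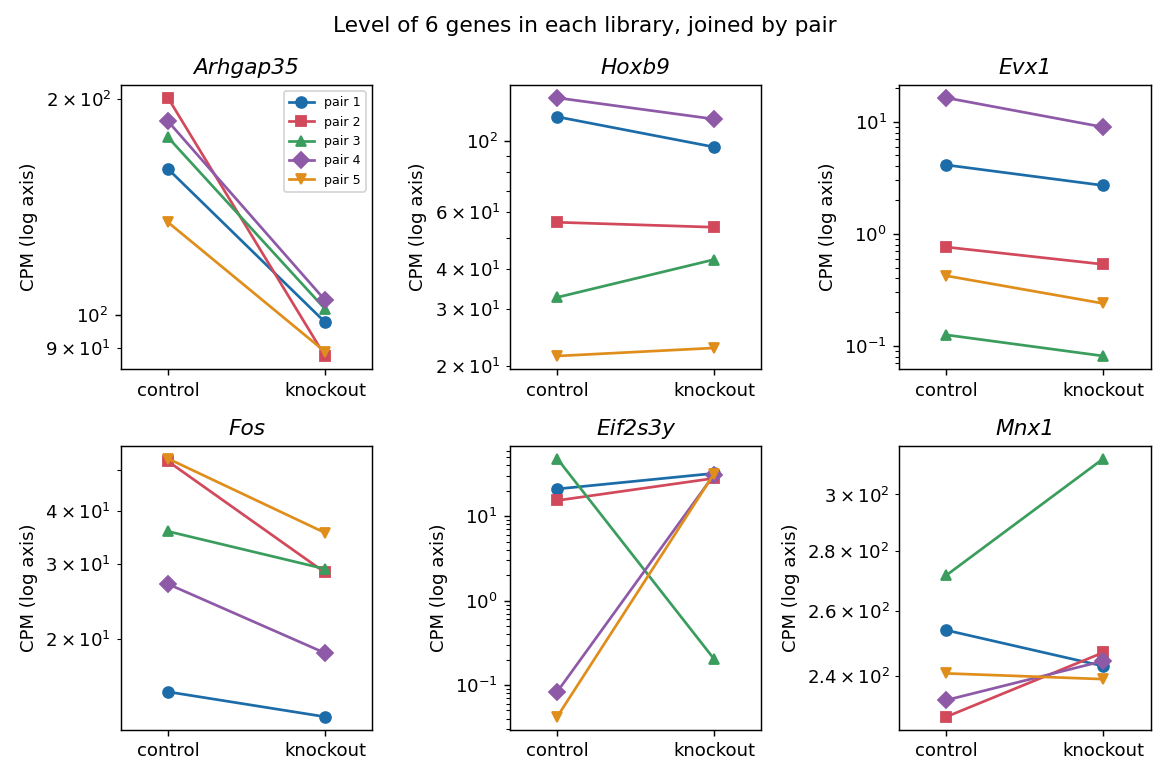
Level of 6 genes in control and knockout libraries in CPM on log axes, with a line for each pair. Arhgap35 and Fos lie lower in the knockout library of every pair, Hoxb9 and Evx1 differ more between numbers than between genotypes, Eif2s3y stands at 0.203 CPM in knockout replicate 3, and Mnx1 overlaps between genotypes.

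Arhgap35 itself (chromosome 7, 16493719 to 16614993, GRCm38, ENSMUSG00000058230.12) was lower in the knockout library of all 5 pairs. It stood at 160, 201, 177, 186 and 135 CPM in control libraries and at 97.9, 87.8, 102, 105 and 89.0 CPM in knockout libraries, so that the groups did not overlap. The within-pair differences of -0.71, -1.19, -0.79, -0.83 and -0.60 gave a log2 fold change of -0.82 (standard error 0.0877). In edgeR's paired quasi-likelihood test, with the replicate number as a block, the adjusted p was 0.162. The gene passed without the block, and with the pairs kept it passed in DESeq2, in limma-voom with the pairs fixed or random, with robust fitting off and without pair 2. Its adjusted p over all alternatives ran from 2.7e-31 to 0.658, and its log2 fold change from -1.08, with Grlf1 added in, to -0.73. The older symbol Grlf1, a separate entry for the same gene, ran from 23.5 to 71.8 CPM in control libraries and was listed at 0 in knockout replicate 1 and at 7.12 to 8.29 CPM in the others. The sources used here do not state which part was deleted, and reads from outside it test nothing about the genotype.

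The paired test called 5 of 17487 genes (0.0286%) at an adjusted p of 0.05, 2 higher (0.0114%) and 3 lower (0.0172%), and 4 of them lay within 20 Mb of Arhgap35 on chromosome 7, a stretch called the targeted locus here. Bcam, which encodes a laminin receptor of the immunoglobulin family, rose. It stood at 13.0, 13.3, 13.4, 12.8 and 19.4 CPM in control libraries and at 17.1, 19.95, 18.5, 19.4 and 24.8 CPM in knockout libraries. Control replicate 5 overlapped the knockout range, but every knockout library lay above its own partner, with differences of 0.40, 0.58, 0.46, 0.60 and 0.35 (log2 fold change 0.48, edgeR adjusted p = 0.0190, standard error 0.0554). AK035387, a clone name with no position in the annotation used, rose in the same way, from 11.9 to 18.8 CPM in control and 17.98 to 26.5 CPM in knockout libraries, ranges that overlap (log2 fold change 0.60, edgeR adjusted p = 0.0190). Neither Bcam nor AK035387 passed in edgeR without the block.

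Ccdc61, Ercc2 and 9330104G04Rik fell, and their groups did not overlap. Ercc2, a helicase subunit of the repair and transcription factor TFIIH, differed by -0.61, -0.57, -0.63, -0.65 and -0.26 in the 5 pairs (log2 fold change -0.55, edgeR adjusted p = 0.0190). Ccdc61, a gene for a coiled-coil protein, differed by -0.67, -1.18, -1.18, -1.68 and -1.11 (log2 fold change -1.18, edgeR adjusted p = 0.0190). The noncoding RNA 9330104G04Rik had a log2 fold change of -1.29 (edgeR adjusted p = 0.0379). Leaving out pair 3 or pair 4 left 0 genes called in edgeR, with 752 and 501 genes outside the locus at an unadjusted p under 0.05, and leaving out pairs 1, 2 or 5 kept 1, 1 and 2 of the 5. The targeted locus held 409 tested genes, of which 86 (21.03%) had an unadjusted p under 0.05, where 5.08% of all genes tested did. The sign was the same in all 5 pairs for 83 of them (20.3%), where it was for 6.8% of all genes tested.

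The largest fitted increase and decrease in the locus came from a gene that the tables list under an old and a new symbol. Prr24 and Inafm1 start at the same base (chromosome 7, 16272013) and are entries of the same gene, so their reads can be assigned to either. Prr24 stood at 18.9, 17.97, 21.1, 20.3 and 17.7 CPM in control libraries and at 0, 17.5, 0, 0 and 0 CPM in knockout libraries. Inafm1 showed the reverse, at 0.658, 0.423, 0.626, 0.333 and 0.632 CPM in control libraries and 17.1, 0.411, 18.5, 18.9 and 17.9 CPM in knockout libraries. Knockout replicate 2 was thus listed like the controls, unlike the other 4 knockout libraries. Added together, an alternative chosen after seeing the data, the entries gave 18.3 to 21.7 CPM in control and 17.1 to 18.9 CPM in knockout libraries, a log2 fold change of -0.12 (edgeR adjusted p = 0.927), against 4.67 for Inafm1 alone.

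**Figure D3:**
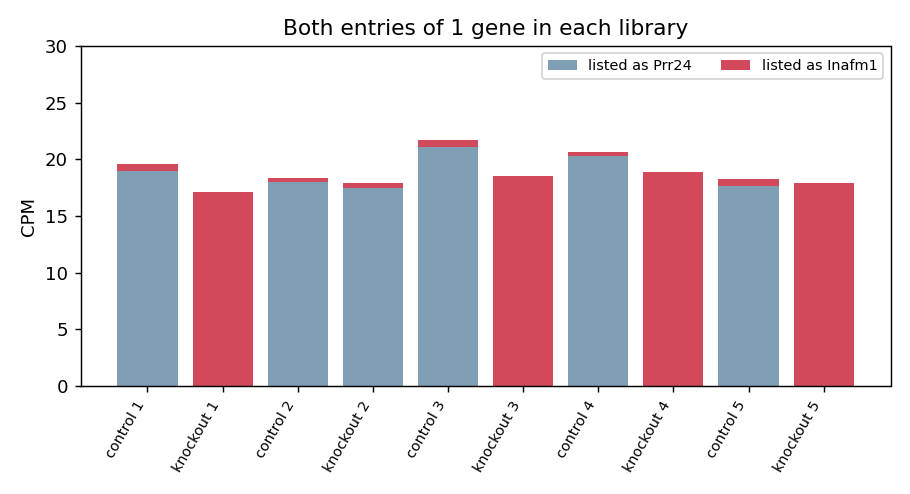
Stacked CPM of the entries Prr24 and Inafm1 in each library, in pair order. The sum stays between 17.1 and 21.7 CPM, while the reads are listed under Inafm1 in 4 knockout libraries and under Prr24 in the other 6 libraries.

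Outside the targeted locus the paired edgeR test called 0 of 15530 genes (0.0%). At an unadjusted p under 0.05 there were 726 genes (4.67%), 367 higher (2.36%) and 359 lower (2.31%). The sign was the same in all 5 pairs for 1003 genes (6.46%), 456 of them higher (2.94%) and 547 lower (3.52%), where it was for 6.8% of all genes tested. The libraries of the genotypes did not overlap for 60 genes (0.386%), where they did not for 0.515% of all genes tested and 5.38% of the targeted locus. DESeq2 with the same block called 10 genes there: Akt2-ps, Cux2, Slc44a5, Fos, Hmgcs1, Rpl35a, mt-Atp8 and the gene models Gm12573, Gm1840 and Gm26816. Testing without a filter on low counts called 18, among them Akt2-ps, Cux2, Slc44a5, H19, Id1 and En1. The rest were Kdm7a, Rps3a3 and entries with Gm or pseudogene symbols. Of these, Gm12573 and Gm1840 passed in DESeq2, without a filter and without pair 5. Akt2-ps, by its symbol a pseudogene of Akt2, also passed without the block, in limma-voom with random pairs and without pair 5. Whether its reads belong to Akt2 was not tested. Its log2 fold change ran from -6.24 to -1.42 over the 19 alternatives that kept it. An exact sign-flip test over 5 pairs cannot go below 0.0625, so single genes were not tested that way.

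Most genes had narrow intervals in the paired edgeR fit. Outside the locus 10160 genes averaged 3 or more in log2 CPM. Their paired 95% confidence intervals, taken gene by gene, lay within 1.5-fold of no change for 98.6% of them, and within 2-fold for 99.3%. This fit did not account for the Y-linked differences between pools, and control pools may hold heterozygous cells. The median distance from the estimate to its limits was 0.0910 on the log2 scale. The block lowered the median standard error from 0.0878 to 0.0651 over all genes tested.

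The genes named next were the 12 per direction with the smallest unadjusted p outside the locus, chosen to have 1 sign in all 5 pairs, so their sign is no result. None passed the adjusted threshold, and their log2 fold changes ran from 0.14 to 0.41 upward and from -0.12 to -0.87 downward. Cux2, a homeobox gene of subsets of neurons, had the smallest adjusted p of the 24. It stood at 119, 114, 110, 120 and 118 CPM in control libraries and at 109, 94.6, 97.6, 103 and 102 CPM in knockout libraries, and the groups did not overlap (log2 fold change -0.20, edgeR adjusted p = 0.0784, standard error 0.0289). Tle1, a corepressor that works with homeodomain factors, and the ribosomal protein gene Rpl10a also kept their groups apart, at log2 fold changes of -0.12 and -0.18.

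Slc44a5, a choline transporter-like gene, was at 71.7, 90.8, 100.2, 93.6 and 105.8 CPM in control libraries and at 86.3, 98.7, 125, 104 and 121 CPM in knockout libraries. The groups overlapped, and the difference was 0.12 to 0.32 in every pair (log2 fold change 0.21, edgeR adjusted p = 0.0965). H19, an imprinted noncoding RNA far from Arhgap35 on chromosome 7 (142575529 to 142578143), stood at 23.3, 19.996, 15.7, 11.6 and 14.0 CPM in control and 26.8, 27.6, 19.6, 14.6 and 17.9 CPM in knockout libraries. The groups overlapped here too (log2 fold change 0.34, edgeR adjusted p = 0.0965). Igf2, the growth factor gene of the same imprinted cluster and named after its values were seen, differed by 0.38, 1.26, 1.53, 0.27 and 0.33 (log2 fold change 0.80, edgeR adjusted p = 0.641). Igf2 was highest, at 9.32 CPM, in knockout replicate 2, the library in which the summed level of 13 endothelial markers was also highest, at 25.9 CPM against 8.04 to 14.7 CPM in control libraries. The part of these cells in the result was not tested.

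The other genes of the upper 12 had mixed known roles. Timp3, an inhibitor of matrix metalloproteinases, had the highest log2 fold change, 0.41, with pair differences of 0.39, 0.12, 0.50, 0.34 and 0.71. Tns1, which links integrins to actin, stood at 0.21, the receptor phosphatase Ptpru at 0.23, the contactin Cntn4 at 0.19 and the metalloproteinase Pappa at 0.19. The lipoprotein receptor gene Lrp1b stood at 0.23, Cpne7 at 0.31, Gpr26 at 0.16, the dystrobrevin gene Dtna at 0.15 and Hoxa7 at 0.14. Among the lower 12, Sspo, which encodes SCO-spondin of the cerebrospinal fluid, stood at -0.62, the protocadherin Pcdhga6 at -0.22, Gpr153 at -0.18, Tub at -0.12 and Zcchc11 at -0.12.

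**Figure D4:**
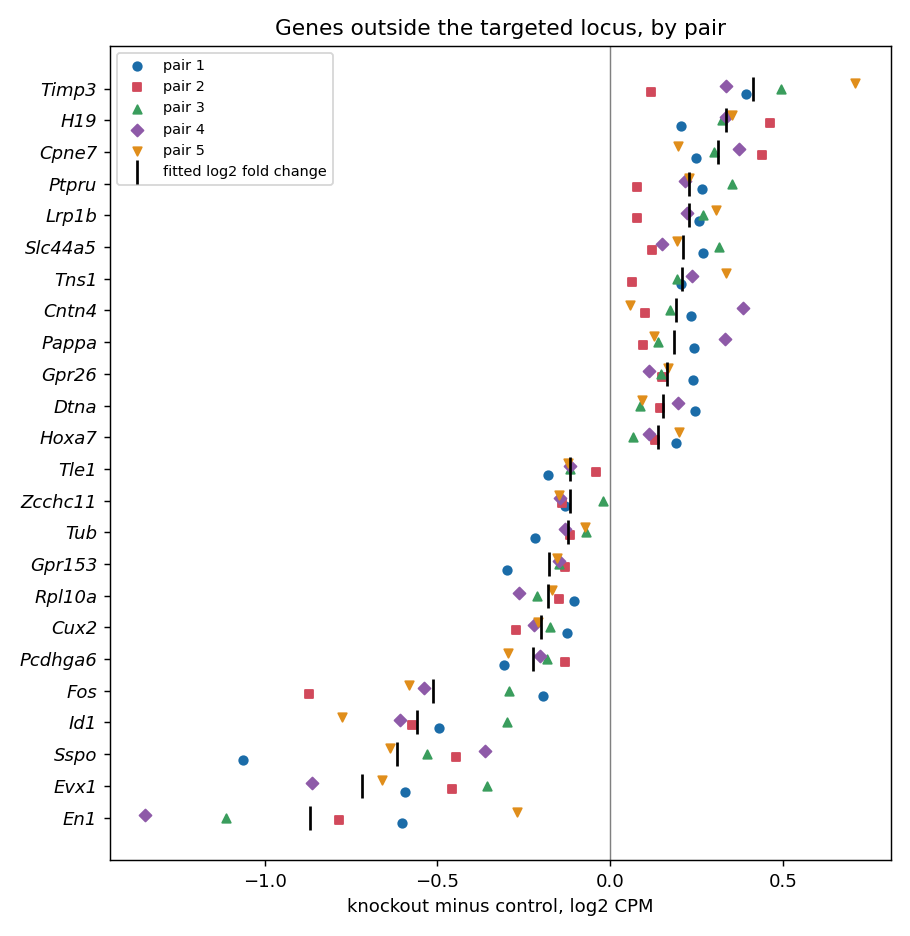
Knockout minus control difference in log2 CPM for each pair, and the fitted log2 fold change, for the 12 genes per direction named outside the targeted locus. All points of a gene lie on the same side of 0 by the rule of choice, and the spread between pairs is widest for En1, Sspo and Fos.

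Id1, an inhibitor of basic helix-loop-helix factors and a target of BMP signals, stood at 5.16, 8.71, 6.01, 4.50 and 7.42 CPM in control libraries and at 3.64, 5.83, 4.87, 2.92 and 4.30 CPM in knockout libraries. The groups overlapped, while the pairs differed by -0.50, -0.57, -0.30, -0.61 and -0.78 (log2 fold change -0.56, edgeR adjusted p = 0.162, standard error 0.0965). Its relative Id3 stood at -0.49 and was lower in all 5 pairs, and Id2 at -0.17, with pairs 1 and 3 at 0.07 and 0.03. Id2 and Id3 were named after their values were seen.

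Immediate early genes are those that neurons transcribe soon after stimulation. Of 22 tested, 7 (31.8%) were lower at an unadjusted p under 0.05 and 0 higher, where 2.49% of all genes tested were lower, and 0 passed the adjusted threshold. The median log2 fold change was -0.08, and of the 7, Fosb lies in the targeted locus. Fos, which encodes a subunit of the transcription factor AP-1, stood at 14.96, 52.5, 35.8, 26.9 and 53.3 CPM in control libraries and at 13.1, 28.7, 29.2, 18.5 and 35.6 CPM in knockout libraries. The groups overlapped and the pairs differed by -0.19, -0.87, -0.29, -0.54 and -0.58 (log2 fold change -0.51, edgeR adjusted p = 0.541). Dusp1, a phosphatase that switches off MAP kinases, stood at -0.15, the activity-dependent factor Npas4 at -0.34 and the orphan nuclear receptor Nr4a1 at -0.16, each lower in all 5 pairs. Myc stood at -0.13 and Egr3 at -0.65. The median of the list was -0.17 in pair 4 and near 0 in pairs 1 and 3. The count of 7 fell to 3 without pair 2, 4 without pair 3 and 4 without pair 4, and to 1 without the block.

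To show the regulatory sequence of these members, promoter windows were looked up for the 6 outside the locus and matched for 4, Fos, Dusp1, Npas4 and Nr4a1, and not for Myc and Egr3. The 250 bases before each start are from RefSeq, GRCm38.p6, read 5′ to 3′ on the gene's strand, and capitals mark TGACG or its reverse complement CGTCA, the core of the cAMP response element.
Fos, chr12:85473640-85473889, plus strand: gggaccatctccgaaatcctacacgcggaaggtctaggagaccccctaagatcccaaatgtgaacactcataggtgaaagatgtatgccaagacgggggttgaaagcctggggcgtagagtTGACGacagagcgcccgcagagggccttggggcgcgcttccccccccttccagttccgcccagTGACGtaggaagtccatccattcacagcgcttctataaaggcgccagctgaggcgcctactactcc
Dusp1, chr17:26508473-26508722, minus strand: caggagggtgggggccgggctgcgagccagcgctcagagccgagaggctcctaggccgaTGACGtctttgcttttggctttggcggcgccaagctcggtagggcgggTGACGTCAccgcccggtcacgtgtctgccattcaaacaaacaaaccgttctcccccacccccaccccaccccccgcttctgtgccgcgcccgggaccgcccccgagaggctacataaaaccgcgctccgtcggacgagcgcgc
Npas4, chr19:4989972-4990221, minus strand: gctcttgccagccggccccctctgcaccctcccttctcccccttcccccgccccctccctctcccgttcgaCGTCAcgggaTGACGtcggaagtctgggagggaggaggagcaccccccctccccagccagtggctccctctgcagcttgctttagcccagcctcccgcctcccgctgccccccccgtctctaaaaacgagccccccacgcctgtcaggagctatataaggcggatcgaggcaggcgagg
Nr4a1, chr15:101266596-101266845, plus strand: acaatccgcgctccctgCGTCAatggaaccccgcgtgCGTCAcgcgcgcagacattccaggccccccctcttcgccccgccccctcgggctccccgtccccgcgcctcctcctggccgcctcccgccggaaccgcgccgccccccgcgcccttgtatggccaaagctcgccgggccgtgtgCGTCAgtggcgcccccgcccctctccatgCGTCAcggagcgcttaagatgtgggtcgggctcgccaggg
The core occurred 2 times before Fos, 3 before Dusp1, 2 before Npas4 and 4 before Nr4a1, counting both strands and overlaps. Among 32536 windows of the same length, 17.9% held it at least once and 3.92% at least 2 times. The full element TGACGTCA, which contains both forms of the core, occurred only before Dusp1 of these 4 and in 1.56% of all windows. The CArG box, bound by serum response factor, was in 1.48% of all windows and in none of these 4 windows. Sites further upstream than 250 bases were not searched, so its absence here says nothing about them. A match of letters is a description and shows no binding.

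Targets of SRF and MRTF, which respond to actin polymerisation, included 4 higher of 25 (16%, where 2.6% of all genes tested were higher), with Zyx at 0.12, Cnn2 at 0.58 and Vcl at 0.11. YAP and TAZ targets, which respond to tension, included 1 higher of 19, Crim1 at 0.09.

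All 22 genes of the netrin, DCC and UNC5 list and all 30 semaphorins, plexins and neuropilins had intervals within 1.5-fold of no change. In the second list 5 (16.7%) were higher and 3 (10%) lower at an unadjusted p under 0.05, where 2.6% of all genes tested were higher and 2.49% lower. Among them were Sema4b at -0.12, Sema5a at 0.10 and the receptor Nrp1 at 0.09. Slit and Robo genes had 0 of 14 at that level and 12 with intervals within 1.5-fold, ephrins and Eph receptors 1 lower of 21 (4.76%, Epha10 at -0.10), and cues of motor axon exit and growth 0 of 22. Neuronal adhesion genes had 3 higher of 29 (10.3%), the contactins Cntn4 at 0.19 and Cntn1 at 0.09 and the cadherin Cdh8 at 0.11. Axon growth genes had 2 higher of 32 (6.25%), Stmn4 at 0.08 and Klf7 at 0.11.

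Of 20 identity genes 18 had an interval within 1.5-fold of no change. Foxp1, which defines limb-innervating columns, was higher at 0.12 and Tbx20, of visceral and branchial motor neurons, lower at -0.81, both at an unadjusted p under 0.05. Tbx20 stood at 0.592, 0.550, 0.376, 2.33 and 0.590 CPM in control libraries and at 0.352, 0.328, 0.243, 1.06 and 0.409 CPM in knockout libraries, with overlapping groups. Cpne4, of the column and pool list, stood at -0.41 and was lower in all 5 pairs. Of 15 caudal Hox genes 3 (20%) were lower at that level and 1 (6.67%) higher, where 2.49% of all genes tested were lower and 2.6% higher, with Hoxd9 at -0.15, Hoxd10 at -0.18 and Hoxc9 at 0.11, and their median ran from -0.44 in pair 1 to 0.11 in pair 3.

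Ventral interneuron genes were the marker group with the most low values. Of 26 tested, 7 (26.9%) were lower at an unadjusted p under 0.05 and 0 higher, against 2.49% lower among all genes tested, and 4 (15.4%) were lower in all 5 pairs, against 3.61% of all genes tested. Evx1 (log2 fold change -0.72) and En1, the marker of V1 interneurons (-0.87), led the list, at edgeR adjusted p of 0.254 and 0.260. Gata3, a factor of V2b interneurons, stood at -0.80, Lhx5 at -0.35, the V3 factor Sim1 at -0.62, Evx2 at -0.52 and Foxd3 at -0.24. Outside replicate 1, Gata3 stood at only 0.292 to 0.791 CPM in control and 0.243 to 0.561 CPM in knockout libraries. Sim1 stood there at 0.253 to 0.761 and 0.239 to 0.472 CPM. In replicate 1, control and knockout levels were 3.25 and 1.56 CPM for Gata3 and 5.36 and 2.46 CPM for Sim1. En1 stood at 11.0, 3.59, 0.876, 3.42 and 0.632 CPM in control libraries and 7.23, 2.05, 0.365, 1.3 and 0.512 CPM in knockout libraries, and the groups overlapped. In pair 3 the Evx1 values rest on 3 and 2 counts. The pairs did not move together, with list medians of -0.52, -0.38, 0.20, -0.44 and 0.07. Dorsal interneuron genes, a list that shares members such as Foxd3, had medians of -0.36, -0.41, 0.72, -0.35 and 0.12. Of 15 dorsal genes 2 (13.3%) were lower and 1 (6.67%) higher at an unadjusted p under 0.05. Among all genes tested 2.49% were lower and 2.6% higher. In such sorted bulk samples, fewer cells of a type and less RNA per cell cannot be told apart. The count of 7 was 3 without pair 1, 11 without pair 3 and 0 without the block.

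Cholesterol synthesis genes held the most high values. Of 24, 12 (50.0%) were higher at an unadjusted p under 0.05 and 0 lower, against 2.6% higher among all genes tested, and 7 (29.2%) were higher in all 5 pairs, against 3.19% of all genes tested. Dhcr7, the last enzyme of the pathway, differed by 0.19, 0.33, 0.20, 0.13 and 0.00 in the 5 pairs (log2 fold change 0.17, edgeR adjusted p = 0.572). Fdps stood at 0.19, Hmgcs1 at 0.17 and Mvd at 0.19. By pair, 16, 23, 22, 23 and 8 of the 24 genes were higher, so pair 5 had most of them lower. The count of 12 was 5 without pair 3 and 4 without pair 4. Glycolysis and hypoxia genes had 7 higher of 32 (21.9%), led by Aldoc at 0.34 and Pdk1 at 0.27. Both differed most in pair 2, by 0.76 and 0.68, against 0.09 to 0.35 in the other pairs, and the count was 11 without pair 1 and 3 without the block.

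The p53 and apoptosis list had small differences, with a median of 0.02 to 0.07 in every pair. Of 28 genes 6 (21.4%) were higher at an unadjusted p under 0.05 and 1 (3.57%) lower, Bcl2l1 at -0.06, where 2.6% of all genes tested were higher and 2.49% lower. Bbc3, which encodes the apoptosis inducer PUMA, stood at 0.18 and lies in the targeted locus. Sesn2, a stress-induced inhibitor of TOR signalling, stood at 16.2, 17.2, 15.4, 17.2 and 17.96 CPM in control libraries and at 18.6, 19.4, 16.4, 20.8 and 19.99 CPM in knockout libraries, and the groups overlapped (log2 fold change 0.18, edgeR adjusted p = 0.641). Ccng1, a p53 target, stood at 0.11. The count of 6 was 6 or 7 without any pair, and 3 without the block.

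**Figure D5:**
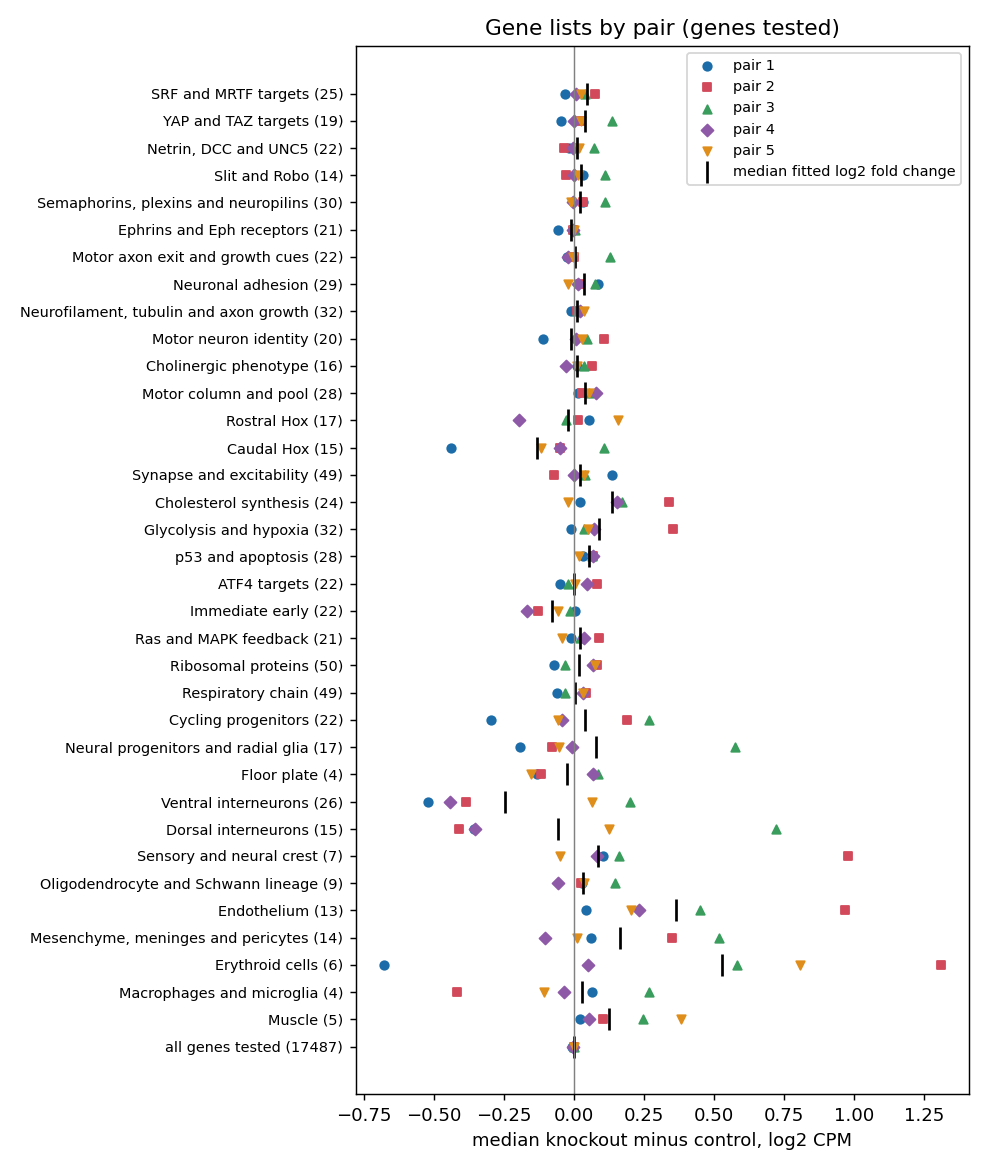
Median knockout minus control difference in log2 CPM for the gene lists reported, by pair, with the median fitted log2 fold change and the number of genes tested in parentheses. Guidance lists lie near 0, cholesterol genes lie above 0 in 4 pairs, and marker lists of other cell types spread most between pairs.

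Markers of other cell types spread widely between pairs. Of 13 endothelial genes 5 (38.5%) were higher at an unadjusted p under 0.05 and 0 lower, where 2.6% of all genes tested were higher and 2.49% lower, with Cldn5 at 0.92, Flt1 at 0.77, Kdr at 0.99, Pecam1 at 0.58 and Eng at 0.64. Cldn5, a tight junction gene, stood at 0.526, 0.803, 0.292, 0.333 and 0.590 CPM in control libraries and at 0.626, 1.72, 1.10, 0.443 and 1.13 CPM in knockout libraries, with overlapping groups. The count of 5 was 1 without pair 2, 2 without pair 3 and 1 without the block. The median log2 fold change of the 6 erythroid genes was 0.53, with 0 at an unadjusted p under 0.05, and their summed level ran from 5.16 to 19.5 CPM in control and 4.58 to 47.7 CPM in knockout libraries. Mesenchymal genes had 2 higher of 14 (14.3%), Col4a2 at 0.22 and Col1a2 at 0.64. Cycling progenitor genes had 1 lower of 22 (4.55%), Plk1 at -0.29, and neural progenitor genes 0 of 17. The median of the cycling genes ran from -0.30 in pair 1 to 0.27 in pair 3. That of the neural progenitor genes ran from -0.19 to 0.58 in the same pairs. The part of these cells in the other lists was not tested.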

How the data were processed

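The authors deposited estimated counts per gene symbol (expected counts, not normalized between libraries) and TPM values, made with kallisto on mm10 per the submitters' processing notes; the sources used here do not state how transcripts became symbols. RNA came from GFP-sorted cells of 10 libraries with 50-base single reads, per the labels' protocols. Expected counts were rounded, passed through filterByExpr, given TMM factors and fitted in edgeR 4.0.16 (robust quasi-likelihood F-test, limma 3.58.1, R 4.3.3) on genotype with the replicate number as a block, with Benjamini-Hochberg adjustment over 17487 genes. Pair differences are log2 CPM with a prior count of 2. Depth was 23.7 to 33.8 M estimated counts.

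Replicate numbers were checked on residuals from the group means. Same-numbered libraries correlated at r of 0.179 to 0.381 and others at -0.294 to 0.104, so the numbers were treated as pairs; the labels do not say what they share. Of 30740 symbols, 26963 were placed on GRCm38 from GENCODE M21 or RefSeq. The members, the 39 gene lists and the tests were chosen with earlier results of these data known. Named genes are Arhgap35, Grlf1, called genes, the 12 per direction with the smallest p outside the locus with 1 sign in all pairs and an average log2 CPM of at least 1 (unnamed models left out), and up to 3 members per list with the smallest p; further genes were picked with their values known. The alternatives comprised other scaling and filters, DESeq2 1.42.0, limma-voom (also with pairs as a random effect), log2 TPM (pseudocount 1 or 0.1) in limma, no block, each pair left out, and, added after seeing the data, a Y-linked covariate and older symbols summed. The code was tested on simulated data. Some of the lists and genes tested are not reported here.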

Additional observations from a re-analysis of the deposited data

Results flagged for a closer look

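Within a group of 5 libraries, 22 of 188 groups tested had a library that stood apart from the others by Dixon's 95% criterion. The genes were not a random sample and several vary together. The rate of about 1 in 20 that chance gives for independent groups therefore does not apply, and the count is a description.

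Knockout replicate 3 stood apart in Y-linked and X-linked transcripts, at 0.162 CPM of Ddx3y, 0.203 CPM of Eif2s3y, 1.46 CPM of Kdm5d, 1.18 CPM of Uty and 1398 CPM of Xist. The same library was highest for the motor neuron factors Lhx3 (106 CPM), Lhx4 (239 CPM) and Mnx1 (313 CPM), and lowest for Gpr153 (20.2 CPM).

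Replicate 1 was highest in both genotypes for 3 interneuron genes. Control and knockout levels were 11.0 and 7.23 CPM for En1, 3.25 and 1.56 CPM for Gata3, and 5.36 and 2.46 CPM for Sim1. Evx1 stood apart in control replicate 4 at 16.3 CPM and Evx2 in knockout replicate 4 at 9.24 CPM.

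Knockout replicate 2 stood apart at 0.411 CPM of Inafm1 and 17.5 CPM of Prr24, the entries of 1 gene, and at 31.3 CPM of Pdk1. Grlf1 was listed at 0 in knockout replicate 1. Bcam, a called gene, stood at 19.4 CPM in control replicate 5.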

How the results depend on the processing

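The count of 5 called genes stayed at 5 under other scaling, the stricter filter and summed older symbols. Without the replicate block it was 6, and the block changed which genes passed. It was 30 without a filter, 25 with DESeq2, 3 with limma-voom, 8 with limma-voom and random pairs, 2 with robust fitting off, 0 with each of the 3 TPM fits, 0 with the Y-linked covariate, and 0 to 6 with a pair left out. Outside the locus the 0 called genes became 18 without a filter, 10 with DESeq2, 1 without the replicate block (Akt2-ps), 1 with random pairs and 0 to 3 with a pair left out. The 726 genes at an unadjusted p under 0.05 became 265 without the replicate block, 250 with DESeq2, 1223 with TPM and no filter and 501 to 1006 with a pair left out. The 1003 genes with 1 sign in all pairs became 1748 to 2372 with a pair left out, where 4 signs need to match in place of 5. Inafm1 turned to -0.12 once summed with Prr24, and Bcl2l1 to 0.014 in all 3 TPM fits; the cause of the latter was not tested. Depth limits genes under about 1 CPM, such as Evx1 in pair 3, and Gata3 and Sim1 outside replicate 1.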
